A study of Rattus norvegicus with 241 samples.

Results

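The CC chemokines and their receptors were taken from every table of the series as all genes whose symbol was CCL or CCR followed by a number, with an L and a second number allowed (CCR1L1), whatever the case of the letters. The rule found 30 genes among the 21707 named in any table, 20 ligands and 10 receptors. The bulk tables held 29 of them, all but CCR8. Droplet data from whole glands also held 29, all but CCL26, whereas those from sorted epithelium held 14 in ACI rats and 21 in Sprague Dawley rats. The rule used no measured value.

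CC chemokines are small secreted proteins that bind 7-helix receptors coupled to inhibitory G proteins, and leukocytes that carry a receptor move toward cells that release its ligand. In a tissue such as the mammary gland, CCL2 and CCL7 draw monocytes, CCL3 and CCL5 act on CCR1, CCL17 and CCL22 on CCR4, CCL19 and CCL21 on CCR7, CCL20 on CCR6, CCL1 on CCR8, CCL25 on CCR9, and CCL27 and CCL28 on CCR10. CCL11, CCL24 and CCL26 act on CCR3, the eotaxin receptor.

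The study asked what a short course of the TGFβ type I receptor kinase inhibitor LY2157299 (TGFBRi) does to the rat mammary gland and to its later tumors. Female rats of the inbred ACI/SegHsd strain or the outbred Hsd:Sprague Dawley SD stock received vehicle or 75 mg/kg TGFBRi by oral gavage, 2 doses a day for 10 days, or for 21 days in the estradiol experiment. There were 241 samples: 202 bulk libraries of sorted basal (CD24+CD29high), luminal (CD24+CD29low) or CD45+ cells, or of EPCAM+ and CD45+ tumor cells, and 39 droplet libraries. Young ACI rats were dosed from 35 days of age and killed 0, 7 or 14 days after the last dose, with 3 rats per treatment and day. Young Sprague Dawley rats were dosed from 24 days of age and killed at day 0, with 4 rats per treatment in bulk. Adult ACI rats were virgin or parous and 18 to 24 weeks old and were killed at day 0, with 2 to 4 rats per group. In the N-nitroso-N-methylurea (NMU) experiment, Sprague Dawley rats dosed from 21 days of age received 50 mg/kg of this carcinogen and were killed 87 days later. Its 3 groups of 3 rats were vehicle with tumors, TGFBRi with tumors and TGFBRi without tumors, and tumors of 3 rats per treatment were sorted as well. In the estradiol (E2) experiment, ACI rats dosed from 38 days of age received an implant with 37 mg of E2 or an empty one. The paper states that these rats were killed months after implantation, at the end of the tumor experiment. Among the rats with libraries, which do not give the tumor incidence, all 4 vehicle rats with E2 bore tumors, whereas of 6 TGFBRi rats with E2, 4 were tumor-free and 2 bore tumors. Of the rats without E2, 4 had received vehicle and 3 TGFBRi. Droplet libraries came from day 0 of 10 days of dosing, as sorted basal and luminal cells of 3 vehicle and 3 TGFBRi ACI rats and of 3 vehicle and 6 TGFBRi Sprague Dawley rats, and as whole glands of 3 vehicle and 6 TGFBRi Sprague Dawley rats. Each replicate was a separate rat. One tumor-free rat of the E2 experiment was represented by 4 mammary parts, which were averaged.

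The promoters of 4 ligands that changed with TGFBRi in the results below were read from RefSeq (rat build GRCr8), 250 bases up to the annotated start and 5′ to 3′, to show the stretch of DNA beside which each change in RNA was measured. Capitals mark matches to a SMAD box (GTCTG, or CAGAC on the other strand) or to the NF-κB consensus on either strand, read as GGG, 2 free bases, TT, 1 free base and CC.
CCL7 promoter, chr10:67513845-67514094, plus strand: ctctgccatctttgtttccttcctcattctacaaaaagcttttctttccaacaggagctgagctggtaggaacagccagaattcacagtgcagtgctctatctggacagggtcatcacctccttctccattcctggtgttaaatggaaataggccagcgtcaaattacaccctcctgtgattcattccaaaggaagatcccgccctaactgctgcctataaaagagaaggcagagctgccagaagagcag
CCL17 promoter, chr19:10209896-10210145, minus strand: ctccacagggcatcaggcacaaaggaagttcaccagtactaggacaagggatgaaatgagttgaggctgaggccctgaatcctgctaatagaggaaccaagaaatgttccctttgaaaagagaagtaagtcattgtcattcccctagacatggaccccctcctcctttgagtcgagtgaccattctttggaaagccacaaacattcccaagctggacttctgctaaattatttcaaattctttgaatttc
CCL20 promoter, chr9:91836909-91837158, plus strand: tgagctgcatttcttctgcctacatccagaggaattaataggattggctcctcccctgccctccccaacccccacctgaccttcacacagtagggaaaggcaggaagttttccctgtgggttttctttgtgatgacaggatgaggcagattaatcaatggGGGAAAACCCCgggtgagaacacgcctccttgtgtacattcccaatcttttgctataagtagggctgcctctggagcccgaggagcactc
CCL22 promoter, chr19:10270360-10270609, minus strand: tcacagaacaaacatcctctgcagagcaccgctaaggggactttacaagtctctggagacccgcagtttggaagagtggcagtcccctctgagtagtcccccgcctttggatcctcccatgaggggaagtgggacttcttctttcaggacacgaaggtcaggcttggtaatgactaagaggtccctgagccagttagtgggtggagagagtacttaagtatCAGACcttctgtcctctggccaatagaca
CCL20 held 2 overlapping NF-κB matches starting at −90 and −89 from the start, whereas CCL22 held a SMAD box at −29, and CCL7 and CCL17 held neither. Windows were found for 19 of the 30 members. Among the 19, 4 held an NF-κB match (CCL9, CCL19, CCL20 and CCR3) and 9 a SMAD box. Of all 33469 windows of the same length, 4.36% held the NF-κB motif and 42.9% the SMAD box. A match is a run of letters and was not tested as a binding site.

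Bulk libraries held 4194912 to 52314784 reads assigned to genes (median 20100223). The droplet tables held 160052 cells, with a median of 2820 to 15941 UMIs per cell in a library. Cells were clustered without the 30 members and named from marker genes as "-like" classes, and 1.66% of the whole-gland cells stayed unnamed. Unnamed cells, among them a whole-gland cluster of 718 cells led by IL22, were left out of every ranking of classes. In whole glands, 6127 of 97157 barcodes appeared in more than 1 library, 88 to 284 for any pair of libraries, against 216 of 39550 in sorted Sprague Dawley and 35 of 16727 in sorted ACI libraries. The paper states different droplet kits for whole glands and sorted cells, and the part of the kit in these counts was not tested. Vehicle replicate 3 of the whole glands stood apart in composition, with 23.2% fibroblast-like cells (5.97 to 12.1% in the other 8 rats) and 8.32% B cell-like cells (20.7 to 28.0%). Vehicle replicate 2 had the lowest median UMI count (2820) and the highest CCL2 in most classes. Results of CCL2, CCL7 and CCL20 by class are given below without vehicle replicate 2. Other results are given without either rat only where stated. In bulk, summed basal markers were 2684 to 35661 reads per 1000000 reads (RPM) in basal and 23.04 to 3198 in luminal libraries, and summed luminal progenitor markers 98.4 to 5538 and 7231 to 187442. The CD45+ libraries held T cell markers at 200.04 to 4721 RPM but also fibroblast markers at 20.2 to 89282, and the EPCAM+ tumor libraries held fibroblast markers at 9750 to 78788 RPM, above their basal markers (747 to 3375).

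Levels of the ligands were compared between classes of the whole gland. Levels below are the UMIs of a gene per 1000000 UMIs of a class (CPM), as mean ± SD over the 9 rats of both treatments. CCL21, which guides dendritic cells and T cells into lymphatic vessels and lymph nodes, was at 30308 ± 11199 in lymphatic endothelium-like cells and at 553 ± 302 in vascular endothelium-like cells, the next class. The 810 lymphatic-like cells carried 72.1% of all its UMIs among 103524 cells. Its partner on CCR7, CCL19, was low throughout and highest in smooth muscle and pericyte-like cells (84.96 ± 65.8), which did not differ from fibroblast-like cells (78.9) beyond their spread.

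CCL2, the main attractant of monocytes, was a stromal and myeloid transcript. Its level was 7381 ± 4303 in fibroblast-like cells, 5474 ± 2874 in lymphatic-like, 4031 ± 2673 in smooth muscle and pericyte-like, 4001 ± 1730 in macrophage-like and 2733 ± 1048 in dendritic-like cells. These neighbors overlapped between rats. In fibroblast-like cells, 75.99% of 11105 cells held a CCL2 UMI, against 5.52% of B cell-like, 5.06% of T cell-like and 6.16% of NK cell-like cells, where the level was 25.9 to 37.0 CPM. The part of free RNA in these low lymphocyte levels was not tested. Basal-like cells had 68.8 ± 25.6, luminal progenitor-like 39.03 ± 23.5 and mature luminal-like cells 26.01 ± 29.9 CPM, near the lymphocyte levels. CCL7, a close relative of CCL2 on chromosome 10, was highest in macrophage-like cells (2059 ± 1496), followed by smooth muscle and pericyte-like cells (1035 ± 738) with overlapping values.

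The inflammatory ligands were highest in macrophage-like or NK cell-like cells. CCL3 was at 3727 ± 1080 in macrophage-like cells and at 499 ± 102.1 in B cell-like cells, without overlap between the classes. CCL4 (1729 ± 1497), CCL6 (808 ± 265), CCL9 (24.4 ± 13.8) and CCL12 (49.6 ± 37.5) were also highest in macrophage-like cells, which held 96.7% of the CCL12 UMIs. CCL5, a product of cytotoxic lymphocytes, was at 7858 ± 1370 in NK cell-like cells, and 92.3% of its UMIs lay in these 1801 cells. This class had 4 of 6 NK cell markers on, and 5 of 8 T cell markers as well. A finer clustering gave 1041 NK cell-like cells, beside a T cell-like cluster of 632 cells led by CTSW and CD3E. The part of T cells in CCL5 was not tested. In the order of classes for CCL5 the next was dendritic-like, at 82.7 ± 67.98.

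CCL17 and CCL22, which attract CCR4+ T cells, were dendritic transcripts. CCL17 was at 1135 ± 296 and CCL22 at 366 ± 136 in dendritic-like cells, with macrophage-like cells next at 12.3 ± 9.42 and 7.71 ± 6.20. Of their UMIs, 95.1% and 92.6% lay in the 2985 dendritic-like cells. Within this class most came from a cluster of 940 cells led by FSCN1, a marker of mature dendritic cells, rather than from a cluster of 2045 cells led by SLPI. The eotaxins were low: CCL24 was highest in macrophage-like cells (147 ± 76.7) and CCL11 in fibroblast-like cells (38.8 ± 24.1, with 90.7% of its UMIs there).

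Receptors lay mostly in lymphocytes. CCR7, the homing receptor for CCL19 and CCL21, was at 1172 ± 405 in dendritic-like and 1084 ± 80.98 in T cell-like cells, which overlapped. CCR6 was highest in B cell-like cells (128 ± 40.6; T cell-like cells next at 36.01) and CCR1 in macrophage-like cells (99.8 ± 26.5; dendritic-like 53.7). CCR4 (43.7 ± 17.4), CCR8 (35.4 ± 17.4) and CCR9 (31.4 ± 9.22) were highest in T cell-like cells, each without overlap with the next class. Within the T cell-like class, CCR4 and CCR8 lay in a cluster of 3178 cells led by TNFRSF4 and FOXP3, the factor of regulatory T cells, at 85.8 to 134 and 64.2 to 147 CPM in TGFBRi rats. CCR9 lay in the other cluster, led by CD3D. CCR10 (5.46 ± 3.15) and CCR3 (1.99 ± 1.301) were near the detection limit and also highest in T cell-like cells.

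Mucosal and epithelial ligands were rare in whole glands. CCL27 was highest in basal-like cells (11.4 ± 3.24; fibroblast-like 9.06) and CCL20 in lymphatic-like (77.7 ± 120) and fibroblast-like cells (61.7 ± 114), with a spread above the mean. CCL1 was highest in NK cell-like cells (25.5 ± 43.6), and CCL28 was at 1.36 ± 0.803 in luminal progenitor-like cells. CCL25 and CCR1L1 had 26 and 13 UMIs in all and were not placed. CCL26, found only in 6 of 16 bulk tables, reached at most 19.2 normalized counts. The other 27 members kept the same highest class with a finer clustering and without likely doublets.

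**Figure D1:**
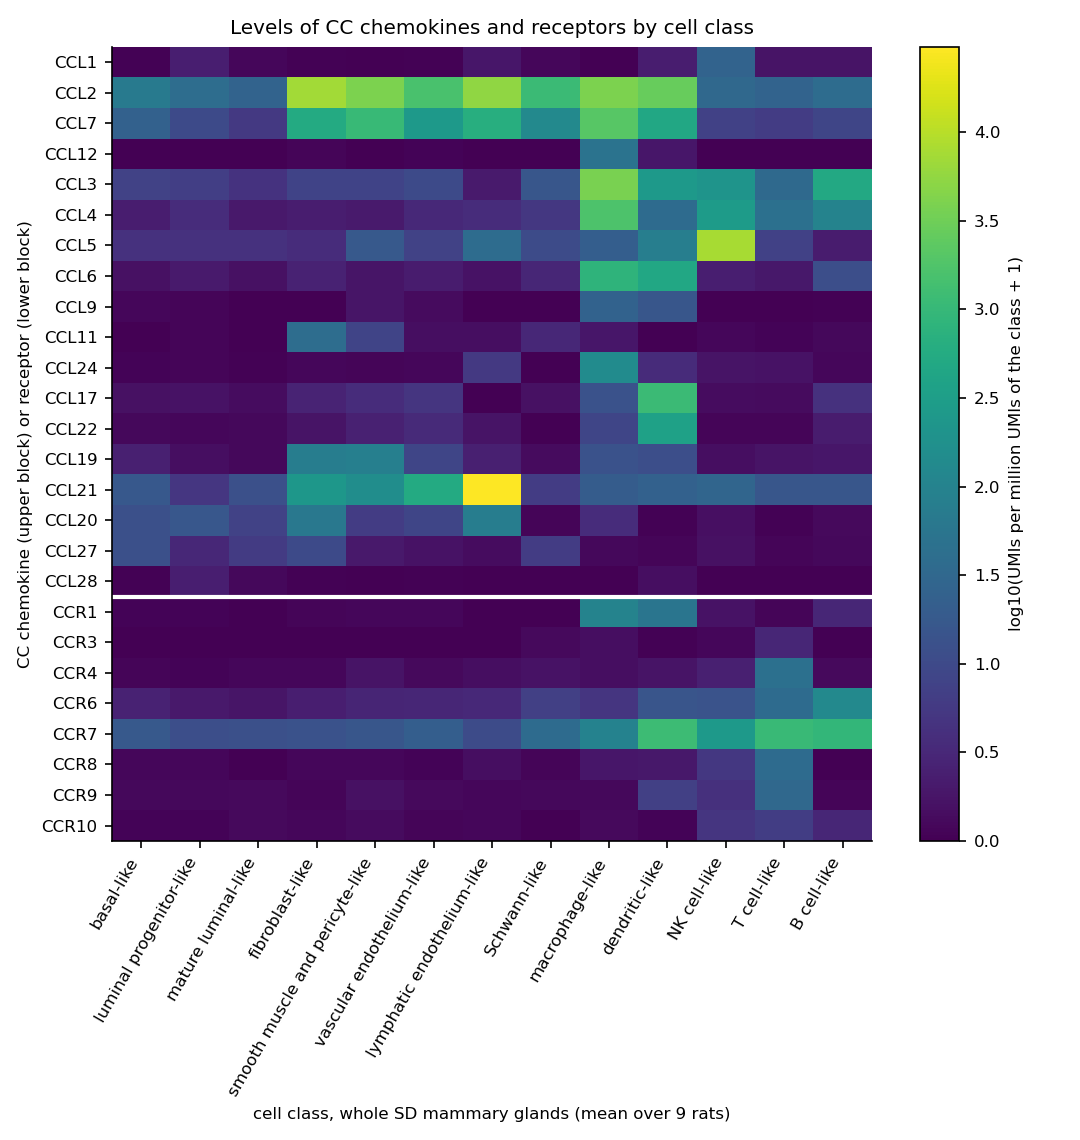
Mean level of 26 members (CPM, log scale) in each named cell class of whole Sprague Dawley (SD) glands, over 9 rats, with ligands in the upper and receptors in the lower block. CCL21 stands out in lymphatic-like cells, CCL17 and CCL22 in dendritic-like, CCL5 in NK cell-like and CCR4, CCR8 and CCR9 in T cell-like cells.

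Sorted epithelium gave a clear source for CCL28, the mucosal ligand of CCR10. In ACI rats it was at 8.81 ± 1.199 (SD, n = 6) in luminal progenitor-like cells and at 0.0221 in mature luminal-like cells, and 99.8% of its UMIs lay in the progenitor-like class. In Sprague Dawley rats it was at 4.93 ± 2.23 (n = 9), with 87.2% of its UMIs there. Among the named classes of ACI rats, CCL2 (144 ± 37.0) and CCL7 (53.1 ± 9.86) were highest in basal-like cells, against 8.41 and 2.65 in luminal progenitor-like cells. A cluster of 47 ACI cells led by COL3A1, COL1A1 and DCN stayed unnamed and was not ranked. The Sprague Dawley sort excluded CD31+ and CD45+ cells, and the study kept only cells with keratin reads. A class of 151 cells that was fibroblast-like by its markers, led by COL1A1, COL3A1 and DCN, had CCL2 at 9835 ± 1443 and CCL7 at 1360 ± 571.

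Bulk libraries of vehicle rats gave the same compartment for CCL28. In young ACI rats its normalized count was 2.90 ± 4.17 (SD) in the basal fraction and 59.5 ± 67.4 in the luminal fraction over 9 rats each, a log2 difference of −3.85 ± 0.52 (limma, adjusted p = 6.26e-07). These 9 rats span days 0, 7 and 14. Luminal CCL28 was 79.5, 145 and 196 at day 0. At day 7 it was 4.54, 18.96 and 27.0, while day 14 gave 16.8, 18.0 and 30.1. The later days were apart from day 0 in all rats, by −3.18 (adjusted p = 0.115) and −2.59 (adjusted p = 0.365), short of the threshold. In young Sprague Dawley rats it was 2.20 ± 2.20 and 85.2 ± 27.2 (n = 4), a log2 difference of −4.91 ± 0.85 (limma, adjusted p = 0.000136). Between basal and luminal cells, 5 of 28 members passed in ACI rats, where 34.1% of all genes did, and 8 of 24 in Sprague Dawley rats, where 50.1% did. Both fractions came from the same rats, which this fit does not model. With the rat as a block, 6 and 11 members passed. The share of all genes called with the block is not given, so the gain cannot be read against it. The calls gained were CCL27 in ACI rats (1.14, adjusted p = 0.00973) and CCL2 (1.83, 0.0375), CCL21 (−2.05, 0.0416) and CCR10 (−1.52, 0.0462) in Sprague Dawley rats. CCL7 was higher in basal cells of both, by 1.77 and 2.26 on the log2 scale. CCL2, CCL19 and CCL24 (the last in 8 of 18 fits without 1 sample) were also higher in basal cells of ACI rats, and CCL11 and CCR7 in those of Sprague Dawley rats. CCL1, CCL4, CCL5 and CCL17, all leukocyte transcripts in the whole-gland cells, were higher in the luminal fraction of Sprague Dawley rats.

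At the end of dosing, CCL2 was lower in TGFBRi glands in all 13 cell classes and passed the test in 9 of them. Rates of calls differ widely between the classes, so each is read against all genes. In fibroblast-like cells, 5 of 23 members passed, where 29.5% of all genes did. CCL2 in the 3 vehicle rats was 6557, 11872 and 16993 CPM, and in the 6 TGFBRi rats 3904 to 6325 with a median of 5119. The groups did not overlap, and CCL2 fell by 1.36 ± 0.23 on the log2 scale (edgeR quasi-likelihood, adjusted p = 0.00161).

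Lymphatic-like cells had 2 of 9 members called, where 15.5% of all genes were. CCL2 was 5734, 8017 and 11854 in vehicle rats and 2811 to 5456 in TGFBRi rats (median 3709), a change of −1.24 ± 0.21 (adjusted p = 0.00196). Macrophage-like cells, the cells that CCL2-guided monocytes become, also had 2 of 20 members called, where 6.95% of all genes were. Their CCL2 was 4365, 6035 and 7640 in vehicle rats and 2672 to 3404 in TGFBRi rats (median 3019), again without overlap (−1.24 ± 0.16, adjusted p = 0.00139). Of the 2 clusters in this class, CCL2 fell in both: by 1.04 ± 0.18 in the cluster led by the complement gene C1QC (vehicle 5486, 7375 and 10384, TGFBRi 4257 to 5063, median 4598, adjusted p = 0.0101) and by 0.76 in the one led by IL1B (vehicle 1392, 1435 and 1607, TGFBRi 704 to 1308, median 916, adjusted p = 0.0167). These tests by cluster were chosen after seeing the data, and 3.47% and 8.33% of all genes passed them. Without 1 rat, the C1QC-led call was kept in 9 of 9 fits and the IL1B-led call in 8 of 9 (largest adjusted p = 0.137).

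CCL2 was also called in other classes. Vascular endothelium-like cells had 617, 1701 and 5214 in vehicle rats and 757 to 1499 (median 1030) in TGFBRi rats, which overlapped (−1.45 ± 0.55, adjusted p = 0.0888). NK cell-like cells had 56.97, 76.9 and 78.3 in vehicle rats and 5.51 to 19.7 (median 11.3) in TGFBRi rats, a change of −2.54 ± 0.28 (adjusted p = 1.24e-06) at a low level. The CCL2 calls in B cell-like (adjusted p = 0.0743), T cell-like (0.0987), luminal progenitor-like (0.041) and mature luminal-like cells (0.0409) were at the same low levels. A fall in free CCL2 RNA and one in these cells were not told apart, and the part of free RNA was not tested. CCL2 did not pass in dendritic-like (−0.49, adjusted p = 0.424), basal-like (−0.37, 0.487), Schwann-like (−0.59, 0.532) or smooth muscle and pericyte-like cells (−0.95, 0.226). Tested by cluster, a choice made after seeing the data, CCL2 passed in some clusters of the dendritic-like and basal-like classes. In the FSCN1-led dendritic-like cluster it was 40.7, 88.2 and 52.4 in vehicle and 11.8 to 38.8 in TGFBRi rats (−1.27 ± 0.30, adjusted p = 0.0184; 4.74% of all genes passed), a call lost only without vehicle replicate 2 (−0.87, adjusted p = 0.27). In the SLPI-led one it differed by −0.41 (adjusted p = 0.508). In the basal-like cluster of mostly TGFBRi cells it was 250, 763 and 110 in vehicle and 24.2 to 97.9 in TGFBRi rats (−2.55 ± 0.63, adjusted p = 0.0788; 6.29% of all genes passed), kept in 3 of 9 fits without 1 rat and −1.57 (adjusted p = 0.218) without vehicle replicate 2. In the one of mostly vehicle cells it differed by 0.70 (adjusted p = 0.502).

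When 1 rat was left out, CCL2 was called in 4 to 8 classes, and the B cell-like, T cell-like and vascular calls each held in 2 of 9 such fits. Without vehicle replicate 2, CCL2 was called in 4 classes and lower in 12 of 13. The 4 were fibroblast-like (−1.05, adjusted p = 0.012), lymphatic-like (−0.92, 0.0108), macrophage-like (−1.03, 0.00625) and NK cell-like (−2.54, 6.92e-05). In vascular cells the difference was then −0.35 (adjusted p = 0.586). Without vehicle replicate 3, which stood apart in composition, 8 classes were called and the fall in fibroblast-like cells was 1.62 (adjusted p = 0.00018).

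CCL7 fell in the same 3 stromal and myeloid classes and moved the other way in basal-like cells. In macrophage-like cells it was 1765, 4333 and 4937 in vehicle rats and 790 to 1663 in TGFBRi rats (median 1291), a fall of 1.81 ± 0.32 (adjusted p = 0.0165). In lymphatic-like cells it was 908, 1117 and 1182 against 226 to 756 (median 405; −1.47 ± 0.27, adjusted p = 0.0058), and in fibroblast-like cells 608, 616 and 949 against 310 to 613 (median 489; −0.83 ± 0.22, adjusted p = 0.0191). Groups did not overlap in the first pair of classes and touched in the last. Basal-like cells of the groups lay largely in different clusters: 81.9% of the vehicle and 9.75% of the TGFBRi cells in a cluster of 4217 cells, and 10.3% and 85.9% in one of 5125. Basal-like results therefore compare different clusters. In basal-like cells, CCL7 was 6.01, 8.78 and 10.0 in vehicle rats and 3.56 to 61.2 (median 32.2) in TGFBRi rats, a rise of 1.93 ± 0.74 (adjusted p = 0.0704) that was no longer called without any 1 of the 3 vehicle rats. Tested by cluster, a choice made after seeing the data, CCL7 differed by 1.92 ± 0.65 (adjusted p = 0.0511; 37.4% of all genes passed) in the mostly vehicle cluster, a call kept in 4 of 9 fits without 1 rat. Receptors of leukocytes rose in the same TGFBRi cells of that cluster. CCR7 was 6.65 to 31.2 CPM in vehicle and 77.6 to 338 in TGFBRi rats, with a UMI in 224 of 3688 and 128 of 529 cells (3.21 ± 0.65, adjusted p = 0.00798). CCR6 (3.92 ± 0.77, adjusted p = 0.00286) and CCR4 (4.19 ± 1.04, adjusted p = 0.00265, from 3 and 7 UMIs) rose as well, and leukocyte RNA in these cells and its part in the CCL7, CCL3 and CCL20 results of the cluster were not tested. CCL7 differed by −0.06 (adjusted p = 0.985) in the mostly TGFBRi cluster and by 0.99 (adjusted p = 0.529) in the third, of 587 cells. In the class 4 of 19 members passed, against 44.2% of all genes. CCL7 also fell in mature luminal-like cells (−1.73 ± 0.64, adjusted p = 0.0865) at 16.0 CPM or less. Without vehicle replicate 2, CCL7 was called in 2 classes, lymphatic-like (−1.40, adjusted p = 0.036) and macrophage-like (−1.55, 0.0653). In fibroblast-like cells it was then −0.65 (adjusted p = 0.108).

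Sorted epithelial cells, a separate set of rats, had CCL7 called in 3 of the 5 classes in which it could be tested, higher in TGFBRi rats. In basal-like cells of ACI rats it was 41.03, 45.1 and 58.2 in vehicle and 51.9, 53.7 and 68.9 in TGFBRi rats, overlapping by 1 rat (0.52 ± 0.14, adjusted p = 0.0178; 34.1% of all genes passed). These cells too lay in different clusters, with 77.8% of the vehicle and 3.88% of the TGFBRi cells in clusters that were over 80% vehicle. In none of 5 single clusters tested, a choice made after seeing the data, did CCL7 pass, and in the mixed cluster of 1644 cells it differed by −0.53 (adjusted p = 0.432; 22.8% of all genes passed). In luminal progenitor-like cells of the same rats it was 0.746, 1.09 and 3.45 against 3.09, 3.43 and 4.08 (1.18 ± 0.44, adjusted p = 0.0779), with 28.1% of all genes called, and this call held in 1 of 6 fits without 1 rat. In mature luminal-like cells of Sprague Dawley rats it was 0, 0.227 and 0.482 against 0.856 to 2.04 (median 1.28; 2.56 ± 0.65, adjusted p = 0.0235; 29.6% passed), from 44 cells with a UMI in all. Clusters under 20% vehicle held 84.5% of the TGFBRi and 23.8% of the vehicle cells of that class. CCL7 did not pass in basal-like (0.85, adjusted p = 0.192) or luminal progenitor-like cells (0.12, adjusted p = 0.869) of sorted Sprague Dawley rats. In bulk luminal cells of young Sprague Dawley rats it differed by −0.68 (limma, unadjusted p = 0.395). CCL2 passed in none of the 6 sorted classes, with log2 differences of 0.15 (ACI basal-like, adjusted p = 0.718) to 2.13 (Sprague Dawley mature luminal-like, adjusted p = 0.108). By single cluster of ACI basal-like cells it was called in opposite directions in clusters that held few cells of one group. It was higher in one (2.99 ± 0.46, adjusted p = 3.54e-07; 1.94% of all genes passed), where the 2 vehicle rats had 21 cells with 5 CCL2 UMIs, and lower in another (adjusted p = 0.00136; 1.09% passed), where the 2 TGFBRi rats in the fit had 53 cells with 0 UMIs and the 3 vehicle rats 1799 cells with 879. The third TGFBRi rat, under the minimum of 10 cells for the fit, had 4 UMIs in 9 cells. In the mixed cluster it differed by −0.10 (adjusted p = 0.869). The difference between epithelial and stromal directions was not tested.

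CCL20 is the CCR6 ligand that epithelium makes under inflammation. In whole glands it was lower in each of the 9 classes in which it could be tested with all rats, and passed in 2. In basal-like cells it was 24.7, 26.4 and 32.1 in vehicle rats and 0.587 to 7.12 (median 2.495) in TGFBRi rats, far apart, a fall of 3.09 ± 0.46 on the log2 scale (adjusted p = 0.000632). CCL20 in this class came from 163 of 9929 cells. The tests by basal-like cluster were chosen after seeing the data. Within the mostly vehicle basal-like cluster CCL20 was 28.5, 28.5 and 19.01 in vehicle rats, from 782 UMIs, against 1 UMI in all 6 TGFBRi rats, 5 of them at 0. The level summed over rats was 72.6-fold lower, with an exact 95% interval of 12.997 to 2872 that covers counting error only. The edgeR test over rats gave an adjusted p of 3.33e-08, where 37.4% of all genes passed, a call kept in 9 of 9 fits without 1 rat. Over those fits the log2 change ran from −9.61 to −5.72. In the mostly TGFBRi cluster it fell by 3.07 ± 0.74 (adjusted p = 0.0602; 6.29% of all genes passed), kept in 5 of 9, and in the third it differed by −1.20 (adjusted p = 0.153; 33.4% passed). In fibroblast-like cells it was 23.7, 102.4 and 353 in vehicle rats and 0.639 to 31.1 (median 9.78) in TGFBRi rats, with 1 vehicle rat inside the TGFBRi range (−3.72 ± 1.04, adjusted p = 0.0389). Luminal progenitor-like cells had 11.4, 12.5 and 25.2 against 1.85 to 36.2 (−0.29, adjusted p = 0.841), so no difference was detectable there. Without vehicle replicate 2 the call remained in basal-like cells (−3.17, adjusted p = 0.0032) and not in fibroblast-like cells (−2.42, 0.178). CCL20 was then lower in 6 of 8 classes, with luminal progenitor-like (0.19) and vascular endothelium-like cells (0.55) higher. Without vehicle replicate 1 it was lower in 7 of 9, with macrophage-like (1.84) and lymphatic-like cells (0.75) higher. In sorted ACI basal-like cells, by single cluster (edgeR, chosen after seeing the data), CCL20 passed in none of those tested. Its log2 differences there ran from −5.15 (adjusted p = 0.844) to 7.10 (0.924). In the mixed cluster it differed by 0.30 (adjusted p = 0.92).

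**Figure D2:**
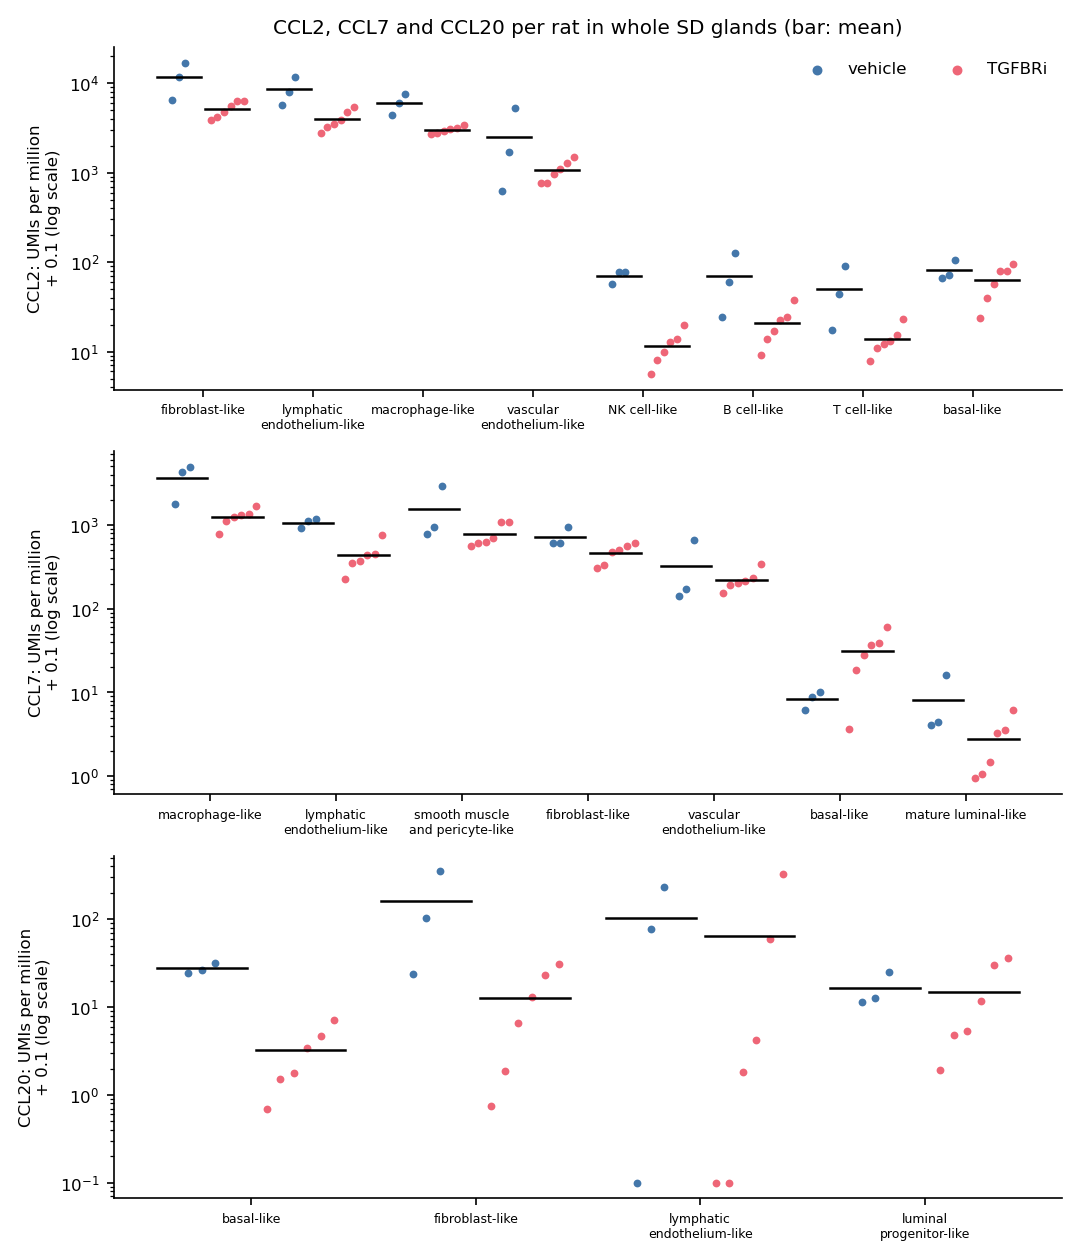
Level of CCL2, CCL7 and CCL20 (CPM, log scale) in each of 3 vehicle and 6 TGFBRi rats, by cell class of whole Sprague Dawley (SD) glands, with bars at the mean. CCL2 of TGFBRi rats lies below every vehicle rat in fibroblast-, lymphatic- and macrophage-like cells, and CCL20 does so in basal-like cells, which lie largely in different clusters by treatment.

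Other ligands of the stroma moved singly. In fibroblast-like cells the eotaxin CCL11 rose, from 7.83, 13.9 and 29.9 to 25.8 to 77.9 (median 44.3, 1.38 ± 0.46, adjusted p = 0.0605), a call lost without vehicle replicate 2 or 3, and CCL27 fell, from 9.09, 12.4 and 13.3 to 5.21 to 10.8 (−0.79 ± 0.22, adjusted p = 0.023). CCL27 went the other way in sorted basal-like cells of Sprague Dawley rats, from 3.63, 4.59 and 5.77 to 5.17 to 11.1 (median 8.75; 1.29 ± 0.33, adjusted p = 0.0218; 30% of all genes passed). There too, 78.2% of the vehicle and 1.43% of the TGFBRi cells lay in a cluster that was over 80% vehicle. CCL27 overlaps Il11ra1 in RefSeq, so its reads are uncertain. CCR10 overlaps Cntnap1, and CCL1, CCL3, CCL6, CCL28, CCR6 and CCR7 overlap genes with LOC names, a limit on their results as well. In vascular-like cells, where 3 of 21 members and 34.4% of all genes passed, CCL3 (−1.28 ± 0.44, adjusted p = 0.0567) and CCL4 (−1.69 ± 0.61, adjusted p = 0.0596) fell at levels of 20.8 CPM or less. In their main source, macrophage-like cells, CCL4 was 1246, 3030 and 5170 against 421 to 1855 (median 912; −1.90 ± 0.53, adjusted p = 0.103) and CCL3 differed by −0.55 (adjusted p = 0.199). By cluster, a choice made after seeing the data, CCL3 was 2527, 5448 and 1991 in vehicle and 925 to 1613 in TGFBRi rats in the C1QC-led macrophage-like cluster, without overlap (−1.63 ± 0.30, adjusted p = 0.027; 3.47% of all genes passed), a call kept in 9 of 9 fits without 1 rat. It differed by −1.02 (adjusted p = 0.0204) without vehicle replicate 2. In the IL1B-led cluster it differed by −0.32 (adjusted p = 0.262). In the basal-like cluster of mostly vehicle cells CCL3 was higher instead, at 8.24, 9.50 and 10.5 in vehicle and 8.44 to 120 in TGFBRi rats (2.64 ± 0.63, adjusted p = 0.0158), kept in 9 of 9 such fits. In the basal-like cluster of 587 cells CCL3 was lower (−2.44 ± 0.83, adjusted p = 0.0497), kept in 3 of 6 such fits. CCL4 was lower there too (−4.97 ± 1.54, adjusted p = 0.0199), kept in 5 of 5, where 33.4% of all genes passed. In the mostly TGFBRi basal-like cluster CCL3 differed by −1.70 (adjusted p = 0.247), where 6.29% passed. By class, CCL3 was lower in 12 of 12 and CCL4 in 11 of 13, with 1 class called for each.

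Calls at very low levels were CCL21 and CCL17 in basal-like, CCL11 in luminal progenitor-like, CCL22 in smooth muscle-like and CCR10 in NK cell-like cells. CCL21 in basal-like cells was 1.82, 25.3 and 99.6 in vehicle rats and 0.207 to 9.84 in TGFBRi rats (median 1.67; −3.83 ± 1.05, adjusted p = 0.0214), whereas its source, lymphatic-like cells, did not pass the test (18421, 37188 and 39026 against 12786 to 46160; −0.23, adjusted p = 0.814). CCL17 in basal-like cells was at most 3.09 (adjusted p = 0.0281), CCL11 in luminal progenitor-like cells at most 1.09 (adjusted p = 0.0589), CCL22 in smooth muscle and pericyte-like cells at most 9.14 (adjusted p = 0.0556) and CCR10 in NK cell-like cells at most 11.3 (adjusted p = 0.0757). The last was 0 in all 3 vehicle rats.

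In the dendritic-like class as a whole, 0 of 21 members passed the edgeR test, where 7.06% of all genes did. CCL17 was 533, 946 and 1068 in vehicle rats and 1032 to 1476 (median 1297) in TGFBRi rats (0.40 ± 0.16, adjusted p = 0.193), and CCL22 was 150, 188 and 352 against 335 to 580 (median 418; 0.71 ± 0.24, adjusted p = 0.129). The 2 clusters of the class went in opposite directions when tested singly, a test chosen after seeing the data. In the FSCN1-led cluster CCL17 rose from 2199, 2409 and 2755 to 2991 to 4526 (median 3656; 0.59 ± 0.12, adjusted p = 0.00585). CCL22 rose there from 509, 666 and 946 to 1046 to 1639 (median 1314; 0.93 ± 0.18, adjusted p = 0.0127). Neither gene overlapped between treatments in these cells, where 4.74% of all genes passed, and both calls were kept in 9 of 9 fits without 1 rat. CCL21, the ligand of lymphatic endothelium, also rose in this cluster, from 12.1, 13.9 and 20.4 to 32.1 to 67.2 (1.60 ± 0.32, adjusted p = 0.00516), a call kept in 9 of 9 such fits, and the part of RNA from other cells was not tested. In the SLPI-led cluster CCL17 fell from 183, 303 and 440 to 101.2 to 242 (median 153; −1.17 ± 0.34, adjusted p = 0.0978; 5.74% of all genes passed), a call kept in 3 of 9 fits without 1 rat, and CCL22 differed by −2.96 (adjusted p = 0.126).

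The receptor of these ligands, CCR4, did not pass in T cell-like cells (−0.07, adjusted p = 0.953) or in the FOXP3-led cluster that holds it (96.02, 139 and 151 against 85.8 to 134; −0.22, adjusted p = 0.552). CCR8 did not pass in the class (0.91, adjusted p = 0.308) or in this cluster (66.1, 67.97 and 93.5 against 64.2 to 147; 0.57, adjusted p = 0.353), though in the CD3D-led cluster it rose from at most 1.68 to 1.68 to 7.71 (adjusted p = 0.042), a call lost without vehicle replicate 2. These tests by cluster were chosen after seeing the data. The FOXP3-led cluster had 5.95% and the CD3D-led cluster 8.51% of all genes called.

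CCR7 changed by cell class. In B cell-like cells, where 2 of 22 members and 17% of all genes passed, it fell from 1077, 1272 and 1449 to 591 to 799 (median 746), with all TGFBRi rats below all vehicle rats (−0.88 ± 0.13, adjusted p = 0.00178). In T cell-like cells, with 1 of 19 members and 8.22% of all genes called, CCR7 did not pass (0.12, adjusted p = 0.601). Within them, in tests by cluster chosen after seeing the data, CCR7 rose in the FOXP3-led cluster, from 492, 682 and 768 to 866 to 1054 (median 982; 0.61 ± 0.12, adjusted p = 0.00427), a call kept in 9 of 9 fits without 1 rat. In the CD3D-led cluster it was 1158, 1164 and 1256 against 1081 to 1344 (0.05, adjusted p = 0.846), and the difference between the clusters was not tested. CCR6, the CCL20 receptor, fell in the FOXP3-led cluster from 58.05, 156 and 214 to 65.2 to 96.9 (median 74.2; −0.99 ± 0.23, adjusted p = 0.042), with overlap, a call lost without vehicle replicate 1 or 2. In B cell-like cells, its main class, CCR6 differed by 0.50 (adjusted p = 0.275).

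NK cell-like cells, with 3 of 14 members and 3.67% of all genes called, had CCR7 at 166, 174 and 184 in vehicle and 223 to 448 (median 280) in TGFBRi rats (0.80 ± 0.20, adjusted p = 0.0379). This CCR7 call did not hold under another clustering, which gave −0.75 (adjusted p = 0.661), or without any 1 of the 3 vehicle rats. CCL5 in NK cell-like cells was 5975, 7275 and 7690 against 6510 to 10456 (median 7889; 0.24 ± 0.12, adjusted p = 0.404).

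**Figure D3:**
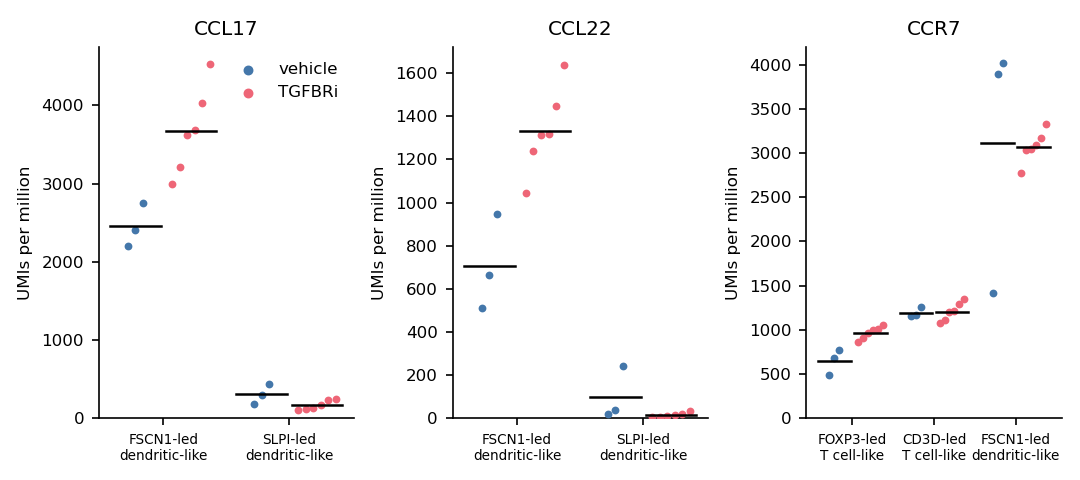
CCL17 and CCL22 in 2 dendritic clusters and CCR7 in 2 T cell clusters and 1 dendritic cluster (CPM) of whole Sprague Dawley (SD) glands, in single rats, 3 vehicle and 6 TGFBRi, with bars at the mean. CCL17 and CCL22 of every TGFBRi rat exceed every vehicle rat in the FSCN1-led cluster, and CCR7 does so in the FOXP3-led cluster.

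Over the 13 classes of whole glands and the 6 of sorted epithelium, 31 of 276 tests of members passed, or 11.2%, against 24.1% of all genes, so the share of the family as a whole was below that background. The median log2 change of the members tested was 0.33 in fibroblast-like, −0.54 in macrophage-like and −0.21 in dendritic-like cells, against 0.03, −0.00016 and 0.02 for all genes. The remaining classes had 0 of 9 members called in Schwann-like (10.6% of all genes), 1 of 18 in smooth muscle and pericyte-like (25.9%), and 2 of 23 and 2 of 20 in luminal progenitor-like and mature luminal-like cells (28.7% each).

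Other genes of the pathway were counted in the same classes. A list of 15 genes held NF-κB members, inducers, and the inhibitors NFKBIA, NFKBIE and TNFAIP3. Of 13 tested, 6 fell and 1 rose in fibroblast-like cells (median −0.57). In basal-like cells 7 fell and 2 rose of 13 (median −0.47), and in mature luminal-like cells 9 fell and none rose of 13 (median −0.78). In macrophage-like cells 1 of 12 rose and none fell, and in T cell-like cells 0 of 13 passed. The part of these genes in the CCL2 and CCL20 results was not tested. Of the G proteins, arrestins, DOCK2 and RGS proteins below the receptors, 7 rose and none fell of 19 tested in T cell-like cells (median 0.33) and 7 rose and 1 fell of 19 in B cell-like cells (median 0.29). The atypical receptors, scavengers that remove chemokines, listed here together with the chemokine XCL1 and its receptor XCR1, had 1 of 6 called in lymphatic-like cells and 0 of 6 in fibroblast-like cells. TGFβ targets had 4 of 9 lower in luminal progenitor-like and in mature luminal-like cells, 2 of 9 lower in fibroblast-like and 4 of 9 higher in basal-like cells. Of all genes, 14.1% rose and 15.4% fell in fibroblast-like, 21.7% and 22.5% in basal-like, 13.5% and 15.1% in luminal progenitor-like and 13.1% and 15.6% in mature luminal-like cells. The same shares were 6.23% and 9.30% in lymphatic-like, 2.82% and 4.13% in macrophage-like, 4.61% and 3.62% in T cell-like and 8.60% and 8.43% in B cell-like cells. Genes that tissue dissociation is known to induce (immediate early and heat shock genes, a list chosen after seeing the data) moved as well. Of 11 tested, 7 rose and 2 fell in fibroblast-like cells, 6 rose and 1 fell in lymphatic-like, 6 rose and 2 fell in basal-like, and 2 rose and 4 fell in macrophage-like cells. Their part in the CCL2, CCL7 and CCL20 results was not tested.

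In bulk libraries of sorted cells, 6 of 833 tests of members between TGFBRi and vehicle passed (0.72%, against 0.588% of all genes), spread over 5 of 32 comparisons. A bulk value cannot tell fewer cells of a type from less RNA per cell. The single ligand called in CD45+ cells was CCL22, in young ACI rats at day 0, where it was 1055, 2349 and 3254 normalized counts in vehicle rats and 6456, 6774 and 9205 in TGFBRi rats. All TGFBRi rats were above all vehicle rats, and CCL22 rose by 1.88 ± 0.47 on the scale of log2(normalized count + 1) (limma, adjusted p = 0.0432). It was 1 of 29 members called, where 2.85% of all genes were. The call was kept in 1 of 6 fits that left out a rat, and edgeR gave an adjusted p of 0.0556.

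CCL22 overlapped between treatments on the later days. On day 7 the vehicle rats had 1239, 2301 and 2653 and the TGFBRi rats 1017, 2305 and 2949. On day 14 the values were 801, 1195 and 1574 against 1259, 2024 and 3214. The change in effect between day 0 and day 7 was 1.92 ± 0.66 (limma, adjusted p = 0.347). CCL17, made by the same dendritic cells, was 1879, 2390 and 3927 in vehicle and 2820, 3457 and 3691 in TGFBRi rats at day 0, with overlap.

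The CD45+ fractions also differed in their makeup at day 0. Summed basal markers were 115 to 345 RPM in vehicle and 4.13 to 7.25 in TGFBRi libraries (5 of 7 markers fell), fibroblast markers 12687 to 32403 against 978 to 7283 (4 of 8 fell), and neutrophil markers 28.3 to 92.97 against 477 to 1940 (4 of 8 rose). Dendritic markers were 247 to 655 against 482 to 657, with 0 of 8 called. Their part in the CCL22 result was not tested. In young Sprague Dawley rats, CCL22 of CD45+ cells was 1238, 1561, 2214 and 3195 in vehicle and 1219, 1460, 1514 and 2498 in TGFBRi rats, which overlapped.

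**Figure D4:**
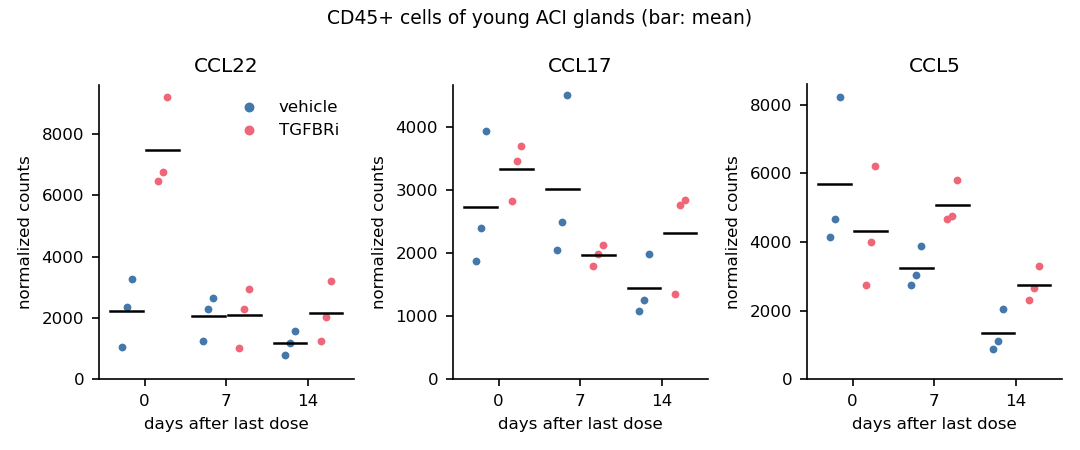
CCL22, CCL17 and CCL5 (normalized counts) in CD45+ cells of single young ACI rats, 3 vehicle and 3 TGFBRi at each of days 0, 7 and 14 after the last dose, with bars at the mean. CCL22 of all TGFBRi rats lies above all vehicle rats on day 0 and overlaps on days 7 and 14, and CCL5 of vehicle rats is lower at day 14 than at day 0.

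CCL22 was also called in basal cells of young ACI rats at day 0, at low levels, in the presence of leukocyte transcripts. It was 0, 0 and 1.16 in vehicle and 16.0, 153 and 371 in TGFBRi rats (6.26 ± 1.47, limma, adjusted p = 0.0348, edgeR 0.0936), 1 of 27 members called where 3.34% of all genes were. Among the 27 members 24 were higher, with a median of 1.63, against 0.30 for all genes. Summed macrophage markers were 10.3 to 17.6 RPM in vehicle and 39.4 to 114 in TGFBRi libraries, B cell markers 0.213 to 2.09 against 10.3 to 24.2 and basal markers 7754 to 11449 against 2684 to 6342. Dendritic markers were 24.8 to 35.5 against 52.3 to 56.5, with 1 of 8 called. The TGFBRi libraries held 4194912, 6562769 and 15136358 reads, against 12382292 to 18781674 in vehicle. The part of these markers and of depth in the CCL22 result was not tested. In luminal cells at day 0, CCL24 was 0.729, 0.783 and 0.829 in vehicle (1 read each) and 31.4, 31.8 and 32.7 in TGFBRi rats (4.21 ± 0.85, adjusted p = 0.0366, edgeR 0.166), 1 of 25 members called where 1.01% of all genes were. The CCL24 call held in 1 of 6 fits without 1 rat and the CCL22 call in basal cells in 3 of 6. CCL24 is a macrophage product in the map of cell classes above, and macrophage markers were 8.18 to 9.21 against 18.8 to 20.8 in these libraries, with 0 of 8 called.

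Virgin adult ACI rats had 2 of 23 members called in basal cells, where 8.73% of all genes were, and in both vehicle replicate 1 had the highest value. CCL4 was 7.50, 11.02, 12.1 and 1280 in vehicle rats and 0, 0, 0 and 4.57 in TGFBRi rats (−4.56 ± 1.29, limma, adjusted p = 0.0373). CCL11 was 2.54, 4.17, 14.9 and 86.4 in vehicle rats and 0 in all 4 TGFBRi rats, at least 35.2-fold lower against a floor of 3 reads over the group (adjusted p = 0.0371), and at least 9.74-fold without vehicle replicate 1. Vehicle replicate 1 had summed macrophage markers of 978 RPM, against 7.14 to 11.5 in the other vehicle and 10.4 to 22.8 in the TGFBRi libraries. Without it the differences were −2.84 for CCL4 (adjusted p = 0.058) and −2.73 for CCL11 (0.0983). Of the 8 fits that left out 1 rat, 2 kept the CCL4 call and 4 the CCL11 call. In parous rats 0 of 23 members passed limma, where 0.00744% of all genes did. CCL20 in parous basal cells was 0, 3.28, 8.30 and 12.1 in vehicle and 20.04, 75.8, 123 and 131 in TGFBRi rats, apart in all rats but short of the threshold (3.91 ± 1.03, limma, adjusted p = 0.737).

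Parity was linked with CCL11 among TGFBRi rats. In their basal cells it was 18.98, 43.2, 88.2 and 136 in parous and 0 in all 4 virgin rats, at least 94.6-fold higher in parous rats (limma, adjusted p = 0.0027; 1 of 23 members and 12.1% of all genes called). Parous vehicle rats had 3.11, 12.9, 19.7 and 54.5, with 2 of the 4 below every parous TGFBRi rat. The difference of the TGFBRi effect between virgin and parous rats was −5.50 ± 1.46 for CCL11 (adjusted p = 0.0803). Smooth muscle and pericyte markers were 852 to 2709 RPM in virgin and 4168 to 4735 in parous TGFBRi libraries, with 6 of 7 higher, whereas 0 of 8 fibroblast markers passed. Their part in the CCL11 result was not tested.

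With time after dosing, 1 of 162 tests of members in vehicle rats passed (0.617%, against 0.239% of all genes). CCL5 in CD45+ cells of the 3 day-0 rats was 4155, 4673 and 8224. The day-7 rats had 2745, 3049 and 3893, and the day-14 rats 870, 1098 and 2037. It fell by 2.12 ± 0.34 from day 0 to day 14 (limma, adjusted p = 0.0282, and edgeR 0.0601), a call that held in 3 of 6 fits without 1 rat, the single member of 29 called, where 0.129% of all genes were. TGFBRi rats had 2733, 4006 and 6204 on day 0, 4670, 4752 and 5798 on day 7, and 2292, 2669 and 3286 on day 14. At day 14 TGFBRi rats were thus all above vehicle rats, but the difference (1.12 ± 0.34) had an adjusted p of 0.899, and the change in effect from day 14 to day 0 (−1.53 ± 0.49) one of 0.144. Summed NK markers were 166 to 327 RPM at day 0 and 153 to 242 at day 14 of vehicle rats.

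Among TGFBRi rats, tumor-free ones with E2 against those without E2 gave 6 calls in CD45+ cells. Of the bulk comparisons, only basal against luminal cells of Sprague Dawley rats gave more. Tumor-bearing TGFBRi rats with E2 were left out of this E2 comparison. In tumor-free rats with E2 against those without E2, 6 of 27 members rose and none fell (limma), 5 of which are described here, where 5.58% of all genes passed and 4.26% rose. CCL5 was 1842, 2251 and 2775 normalized counts without E2 and 10597, 17236, 20668 and 26680 with E2 (2.98 ± 0.71, adjusted p = 0.0237). CCL4, which macrophage-like cells held in the map of classes, was 1065, 1202 and 1301 against 2560, 3364, 3818 and 4992 (1.59 ± 0.37, adjusted p = 0.0201). Neither gene overlapped between the groups.

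A further 3 members also rose. CCL22 was 587, 1073 and 1628 without E2 and 2386, 3259, 8311 and 17653 with E2 (2.53 ± 0.64, adjusted p = 0.0327). CCR4, its receptor, was 384, 562 and 575 against 844, 1043, 1046 and 1691 (1.16 ± 0.28, adjusted p = 0.0232). CCL1, the ligand of CCR8, was 21.6, 59.2 and 59.5 against 118, 195, 441 and 477 (2.61 ± 0.67, adjusted p = 0.0327). None overlapped either. Each of these 5 calls held in 1 to 3 of the 7 fits that left out a rat. The median over the 27 members was 0.98, with 22 higher, against −0.03 for all genes.

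In vehicle rats, E2 gave 0 of 27 members by limma, where 0.282% of all genes passed, and all sequenced vehicle rats with E2 bore tumors. CCL4 was 1463, 1601, 2356 and 2415 without E2 and 1201, 1672, 1772 and 2236 with E2 (−0.19 ± 0.34, adjusted p = 0.876), overlapping and slightly lower on average. CCL5 was 1442, 1452, 2128 and 12637 without E2 and 4693, 5864, 13066 and 16451 with E2 (1.68 ± 0.65, adjusted p = 0.318). CCL1 was 46.4, 56.8, 61 and 126 against 163, 172, 259 and 365 (1.74 ± 0.62, adjusted p = 0.263), apart in all rats but short of the threshold. CCR4 was 529, 758, 763 and 932 against 977, 995, 1167 and 1799 (0.71 ± 0.26, adjusted p = 0.269), also apart in all rats and short of it. CCL22 was 1015, 1563, 1989 and 6523 with E2, which overlapped the vehicle rats without E2. Whether the effect of E2 differed between treatments was not tested. The 2 tumor-bearing TGFBRi rats had CCL5 at 7979 and 46288, CCL1 at 189 and 2020 and CCL22 at 761 and 1521. Their CCL22 lay within the range of the TGFBRi rats without E2, whereas their CCL5 and CCL1 lay above those rats. Tumor-free and tumor-bearing TGFBRi rats differed in CCL22 by 2.43 ± 0.72 (adjusted p = 0.254). With E2, tumor-free TGFBRi and vehicle rats had 0 of 27 members and 0% of all genes called by limma, with 11 members and 6.27% of all genes at an unadjusted p under 0.05, 21 members higher and a median of 1.01, against 0.00456 for all genes. CCL4 was 1201, 1672, 1772 and 2236 in vehicle and 2560, 3364, 3818 and 4992 in TGFBRi rats (1.09 ± 0.34, adjusted p = 0.793), apart in all rats, and here treatment and tumor cannot be told apart. In luminal cells without E2, TGFBRi against vehicle gave 0 of 26 members and 0.0147% of all genes, with 5 members and 3.18% of all genes at an unadjusted p under 0.05. There CCL7 was 110, 341, 492.5 and 679 in vehicle and 1945, 2327 and 4911 in TGFBRi rats (3.07 ± 0.99, adjusted p = 1) and CCL24 was 0, 0, 0.908 and 15.0 against 75.4, 102.3 and 127 (5.41 ± 1.59, adjusted p = 1), both apart in all rats but short of the threshold.

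Markers of cell types moved with E2 in the TGFBRi rats. NK markers were 235 to 319 RPM without and 451 to 954 with E2 in tumor-free rats (5 of 7 rose), macrophage markers 128 to 150 against 194 to 608, dendritic markers 133 to 192 against 201 to 396 (2 of 8 called) and B cell markers 1038 to 1285 against 37.6 to 933. In the vehicle rat without E2 that had CCL5 at 12637, NK markers were 544, against 241 to 313 in the other 3. Their part in the CCL5, CCL22 and CCR4 results was not tested.

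**Figure D5:**
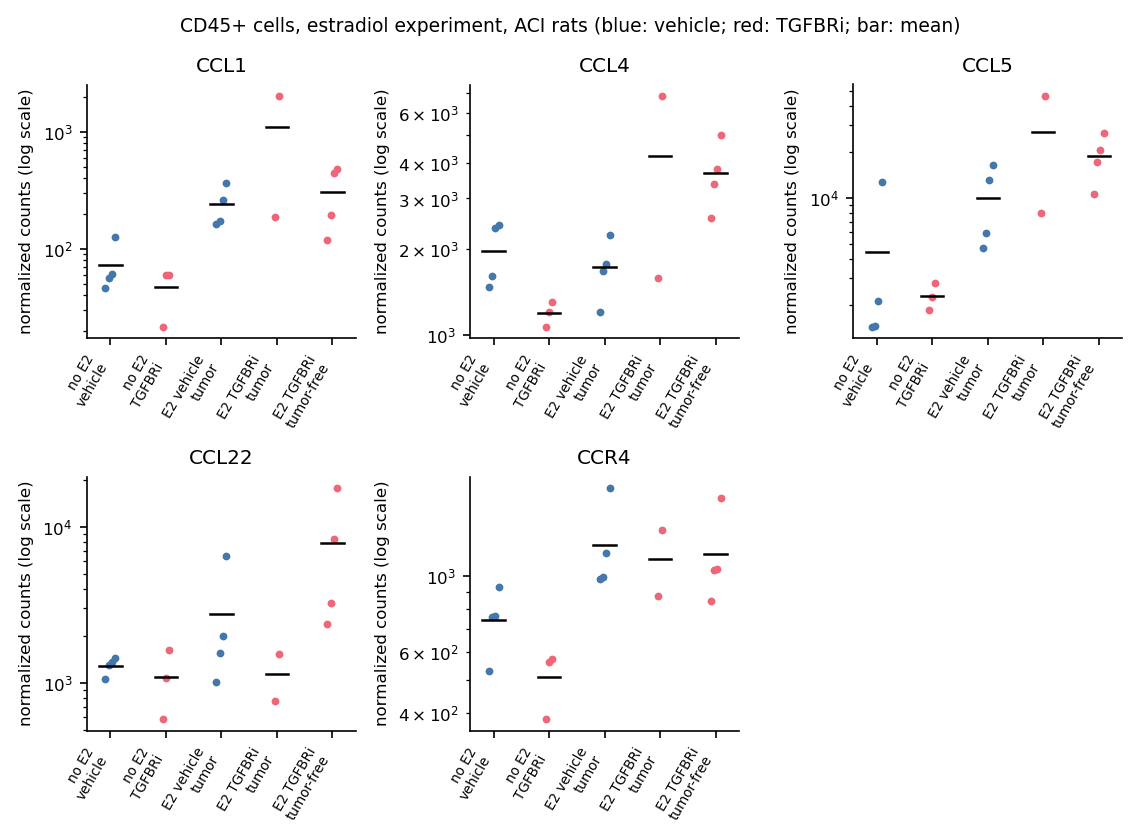
CCL1, CCL4, CCL5, CCL22 and CCR4 (normalized counts, log scale) in CD45+ cells of single rats of the estradiol experiment, by treatment, implant and tumor, with bars at the mean. All 4 tumor-free TGFBRi rats with E2 lie above the 3 TGFBRi rats without E2 for each of the 5 genes, whereas vehicle rats with and without E2 overlap for CCL4, CCL5 and CCL22.

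In luminal cells of the same experiment, CCL28 rose with E2 in tumor-free TGFBRi rats, from 0, 33.6 and 35.7 to 76.1, 134, 154 and 283 (3.76 ± 1.05, limma, adjusted p = 0.049, edgeR 0.124; 2 of 26 members and 4.58% of all genes called), and the CCL28 call held in 3 of 7 fits without 1 rat. Summed luminal progenitor markers were 8687 to 13964 RPM without and 94753 to 187442 with E2, with 3 of 6 higher. Their list holds the milk genes CSN2, CSN3 and LALBA, and the paper reports milk protein production under E2. The sum is therefore not a measure of cell number, and its part in the CCL28 result was not tested. Vehicle rats had CCL28 at 26.9, 33.6, 108.1 and 133 without and 144, 148, 201 and 207 with E2. CCR1L1, a receptor gene beside CCR1, was 13.8, 13.9, 95.5 and 96.4 in tumor-free TGFBRi rats with E2 and 0 in all other luminal groups. Against vehicle with E2 it was the single call of any member (0.0147% of all genes passed), at least 105.5-fold higher (limma, adjusted p = 0.0194), but edgeR gave an adjusted p of 0.629. CCR1L1 overlaps CCR3 in RefSeq and its reads are uncertain.

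The NMU glands and tumors gave no call of a member by limma. The smallest unadjusted p was for CCL20 in CD45+ cells, which was 224, 262 and 1076 in vehicle rats with tumors, 18.1, 23.03 and 93.2 in TGFBRi rats with tumors and 158, 481 and 785 in tumor-free TGFBRi rats. Tumor-bearing TGFBRi rats lay below both other groups in each rat, with differences of −3.51 ± 0.79 from vehicle (adjusted p = 0.255, where 0.015% of all genes passed) and 3.48 ± 0.79 between tumor-free and tumor-bearing rats (adjusted p = 0.473). Fibroblast markers, of a cell class that holds CCL20, were 13761 to 29133 RPM in vehicle, 7568 to 11052 in tumor-bearing TGFBRi and 11848 to 19750 in tumor-free TGFBRi libraries, and their part was not tested. In EPCAM+ tumor cells, where 0% of all genes passed, all 26 members tested were higher after TGFBRi, with a median of 0.87 against 0.05 for all genes. CCL4 was 3.42, 13.5 and 63.6 in vehicle and 61.4, 65.8 and 169 in TGFBRi tumors (2.47 ± 1.00, limma, unadjusted p = 0.0331, adjusted p = 1). Summed macrophage markers were 49.2 to 229 RPM in vehicle and 62.9 to 361 in TGFBRi tumors, and their part was not tested. In CD45+ cells of young Sprague Dawley rats, CCR4 was 161, 280, 310 and 342 in vehicle and 478, 491, 499 and 517 in TGFBRi rats, apart in all rats, with a difference of 0.91 ± 0.35 and an adjusted p of 0.87. CCL21 in CD45+ cells of virgin adults was 909, 923, 1302 and 12972 in vehicle and 146, 454 and 522 in TGFBRi rats (−2.57 ± 0.88, adjusted p = 0.779).

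Across the bulk comparisons that set effects against each other (day 0 against days 7 and 14, virgin against parous), 0 of 238 tests of members passed limma, where 0.13% of all genes did. Estradiol and tumor comparisons had 8 of 238 (3.36%, against 1.94%), and parity 1 of 152 (0.658%, against 1.97%).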

How the data were processed

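Reads of the bulk libraries were aligned by the authors with STAR 2.5.1b to rn6 and counted per gene with htseq-count without strand, so that overlapping genes cannot be told apart. The deposited bulk values are normalized counts (DESeq2 1.30.1, unit signal). Whole reads could be recovered for 100% of 2526550 values at a tolerance of 0.001. The deposited droplet tables are UMI counts per cell (Cell Ranger 4.0.0 for sorted cells and 7.0.0 for whole glands), filtered by the authors in Seurat, with CD45+ cells and cells of fewer than 2 keratin reads removed from the sorted ones. Bulk values were tested with limma 3.58.1 on log2(normalized count + 1), all groups of a fraction of an experiment in 1 fit, for genes summing to 10 or more, and called at 0.05 or less after Benjamini-Hochberg adjustment. UMI counts were summed per rat and class (10 cells or more) and tested with the quasi-likelihood test of edgeR 4.0.16, at 0.1 or less, both thresholds two-sided. The p-values are adjusted over all genes of a comparison. Both tests recovered known changes in simulated data. The simulated bulk changes were set only in genes with many reads, so that check does not cover members with few reads.

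Cells were clustered with scanpy 1.11.5 and named from marker lists: a marker was on at 25% or more of its highest cluster and in 10% or more of the cells, 3 markers were needed, and the 10 leading genes could not favor another class. This naming rule was set after the clusters were seen. The doublet caller called 0.334% of the ACI, 1.64% of the sorted Sprague Dawley and 0.639% of the whole-gland cells, so doublets were treated by an alternative without the 6% of cells with the highest scores. For a gene at 0 in a whole group, the fold is a bound against 3 reads. Intervals and floors cover counting error only. The members and gene lists were chosen with earlier results of these data known. Members were named where they passed, and otherwise by the smallest unadjusted p (at most 3 per comparison, mean of 20 or more). Labels disagreed for a few libraries: those of 1 young ACI rat were titled as control and described as treated, and were taken as vehicle, and 1 CD45+ library titled day 9 was taken as day 7, as its characteristics state. Other scalings, filters, pseudocounts, tools and clusterings, and fits without 1 rat, were computed for every called result. The results of 1 member are not reported here.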

Additional observations from a re-analysis of the deposited data

Results flagged for a closer look

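In 6 of 74 groups of 4 to 10 rats behind a called member, 1 rat stood far from the others by Dixon's test. For normally distributed values chance does so in about 1 of 20 groups. These values are untransformed counts and levels, for which that rate need not hold. A group with all rats but 1 at 0 is always flagged. In basal cells of virgin adult vehicle rats, CCL4 was 1280 in vehicle replicate 1 (next 12.1) and CCL11 was 86.4 in the same rat (next 14.9). In the matching TGFBRi group 1 rat had CCL4 at 4.57 and the others 0. In CD45+ cells of vehicle rats without E2, CCL5 was 12637 in replicate 4 (next 2128). In whole glands of TGFBRi rats, CCL21 in basal-like cells was 9.84 CPM in 1 rat (next 3.60), and CCL22 in smooth muscle and pericyte-like cells was 9.14 in 1 rat (next 3.28).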

How the results depend on the processing

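Counts of members called between TGFBRi and vehicle in bulk were 6, against 14 with DESeq2, 3 when only the 2 groups compared entered the fit, and 4 to 11 when 1 rat was left out. In single-cell classes they were 31, against 75 when clusters replaced classes and 19 to 35 when 1 rat was left out. In whole glands this was 27 of 238 tests of a member by class (11.3%, against 21.3% over all genes) and 71 of 457 by cluster (15.5%, against 15.1%). For basal against luminal cells they were 13, against 17 with the rat as a replicate block (correlation of 0.519 within 18 young ACI rats and 0.093 within 8 young Sprague Dawley rats) and 11 to 16 when 1 rat was left out. For day the count was 1, against 4 with DESeq2, 0 with edgeR, 2 with only the groups compared and 0 to 6 without 1 rat. For differences of effects it was 0, against 2 with DESeq2 and 0 to 2 without 1 rat. For estradiol and tumor it was 8, against 16 with DESeq2, 5 with edgeR, 13 with mammary parts kept apart and 2 to 11 without 1 rat. For parity it was 1, against 2 with DESeq2, 2 with a pseudocount of 5 and 1 to 2 without 1 rat. Fits without 1 rat hold fewer samples; for the other settings the cause was not tested. Members placed in a highest class in sorted Sprague Dawley cells were 8, and 6 without likely doublets, whereas whole glands (27) and sorted ACI cells (7) kept all. CCR7 in NK cell-like cells reversed, to −0.75 with a finer clustering. For single named members, 331 values under the other settings kept direction and side of the threshold, 35 lost the call and 1 reversed; without 1 rat, 385 kept it and 153 lost it. Groups of 2 to 4 rats and low read counts (1 read in CCL24, 0 in CCL11) limit most bulk calls.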
